A study of Homo sapiens with 6 samples.

Results

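Genes that carry signals through the p38 branch of the MAP kinase network were followed in the MDA-MB-231 line, which is derived from a triple-negative breast cancer, after transfection with a mimic. They were chosen by name, as the rows of the gene table whose symbol is exactly MAPK14, MAPK13, MAP2K3, MAP2K6, MAP3K7, TAB1, TAB2, TAB3, MAPKAPK2 or MAP3K20. These are 10 of the 26341 rows that name a single gene. Mimics are synthetic RNAs that stand in for a microRNA. The title of the series names TNF-α, miR-5001-5p, MNK2a and p38 MAPK. The mimic group had 3 libraries of polyadenylated RNA and the control group 3. All 6 came from this one cell line, and the labels give no sequence, dose or time for either transfection. The control libraries carry nc in their titles, which the labels do not spell out.

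Stress and cytokine signals reach p38 through a 3-tier cascade. A MAP3K such as TAK1 phosphorylates a MAP2K, and the MAP2K phosphorylates p38, which then acts on downstream kinases and transcription factors. TAK1 works in a complex: TAB1 binds and activates it, and TAB2 and TAB3 are related adaptors that hold it on ubiquitin chains built at cytokine receptors. In breast cancer cells this route links TNF and interleukin-1 to inflammatory gene expression.

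Libraries held 31643826 to 32363456 counts. Of 11260 rows tested, 2506 differed between groups (edgeR quasi-likelihood test, Benjamini-Hochberg adjusted p under 0.05), which is 22.3% of them, with 1534 higher and 972 lower in mimic. Scaling libraries to their total counts instead of TMM gave 1136 higher and 1783 lower. The median log2 fold change of all tested rows was -0.01 with TMM scaling and -0.09 with scaling to totals. Without control replicate 3 the count of changed rows was 1576. The lower ones numbered 569, 588 and 503 when control replicate 1, 2 or 3 was left out, and 642 when mimic replicate 2 was. The 6 genes fixed as markers of this line (VIM, CD44, AXL, EGFR, CAV1 and MSN) summed to 1099 to 1158 FPKM in mimic libraries and 941 to 960 FPKM in control libraries. Leukocyte markers summed to at most 0.525 FPKM in mimic and 0.799 FPKM in control. The fibroblast gene COL1A1 measured 0.954 to 1.21 FPKM in mimic and 2.32 to 2.83 FPKM in control. LUM, of the same list, measured 0.062 to 0.103 FPKM in mimic and 0.021 to 0.063 FPKM in control. For PDGFRB the values were 0.057 to 0.179 FPKM in mimic and 0.035 to 0.082 FPKM in control. COL1A2 and DCN had no row of their own. Luminal breast markers with a row of their own summed to 7.03 to 7.8 FPKM in mimic and 7.82 to 9.07 FPKM in control. Nothing in the labels says that replicates were separate cultures, so p-values measure only the spread between these libraries, which may be technical.

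Of the 10 genes, 9 passed the expression filter, and MAP2K6 did not. In mimic, TAB3, MAP3K20 and MAPK14 were higher, TAB2 and TAB1 lower, and MAP2K3, MAP3K7, MAPKAPK2 and MAPK13 did not pass the test. That is 5 of 9 (55.6%), against 22.3% of all rows tested, 13.6% of rows being higher and 8.63% lower. In a separate fit of rows with an FPKM of at least 5 in at least 3 libraries, 2109 of 6669 passed. The genes were not matched to other rows for expression level and were chosen with earlier results of these data known. The comparison of shares is therefore not neutral. The same 5 genes had groups that did not overlap after TMM scaling, against 42.1% of all rows. The median log2 fold change of the 9 genes was 0.03. In RNA from whole cultures, fewer cells that express a gene and less of its RNA per cell cannot be told apart.

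**Figure D1:**
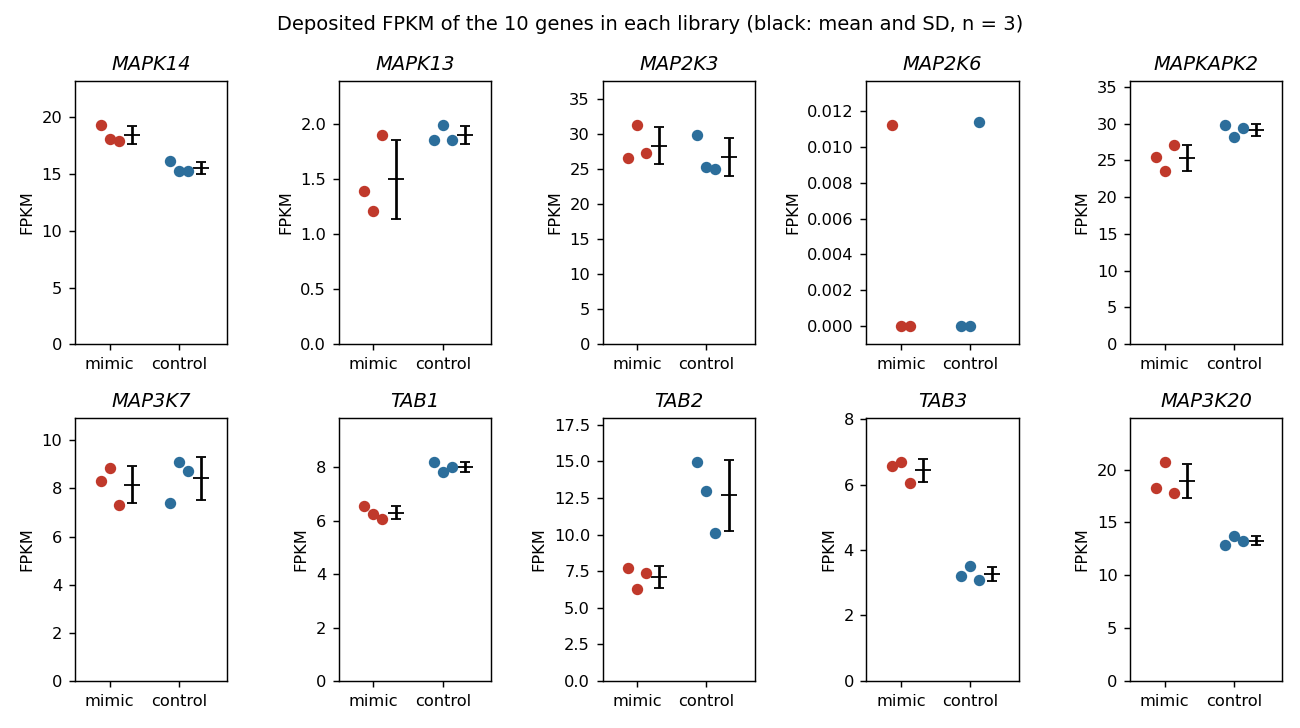
Deposited FPKM of each of the 10 genes, one point per library, with the mimic group left of the control group and the mean and SD of 3 libraries in black (none drawn for MAP2K6, which was at 0 in 2 libraries of each group). The mimic points lie above all control points for MAPK14, TAB3 and MAP3K20 and below them for TAB1, TAB2 and MAPKAPK2, and the TAB2 control libraries spread from 10.1 to 15.0 FPKM.

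The p38 kinases come first. MAPK14 encodes p38α, the p38 kinase found in nearly all cell types. It measured 19.3, 18.1 and 17.9 FPKM in mimic libraries, against 16.2, 15.3 and 15.3 FPKM in control libraries. Every mimic library lay above every control library, and the spread within a group was small, with coefficients of variation of 4.24% in mimic and 3.35% in control. With TMM scaling the gene rose 1.25-fold (log2 fold change 0.32 ± 0.05, SE, edgeR adjusted p = 0.00629). With libraries scaled to their totals the log2 fold change was smaller, at 0.24 (edgeR adjusted p = 0.0195). Leaving out any 1 of the 6 libraries kept the call, and the highest adjusted p was 0.0318. MAPK14 lies on the plus strand at chr6:36027677-36111236 (GRCh38). The processed pseudogene Z95152.1 lies within its span on the opposite strand and was counted in a row of its own, with 387, 116 and 233 counts in mimic libraries and 280, 315 and 262 in control libraries, against 3953 to 4258 and 3314 to 3590 counts for MAPK14. Whether reads were split between the pair was not tested.

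MAPK13 encodes p38δ, a p38 kinase with a narrower tissue range that is often seen in epithelia. It measured 1.39, 1.21 and 1.89 FPKM in mimic libraries, against 1.85, 1.99 and 1.85 FPKM in control libraries. Mimic replicates 1 and 2 lay below all 3 control libraries, while mimic replicate 3 lay among them, and the coefficient of variation was 23.8% in mimic and 4.16% in control. The log2 fold change was -0.26 ± 0.17 (edgeR adjusted p = 0.3). Without mimic replicate 3 it was -0.47 with an adjusted p of 0.0221. MAPK13 starts 16572 bases past the end of MAPK14 on the same strand, at chr6:36127809-36144524. The row holding MAPK13 is an assembled locus whose FPKM length is 20465 bases, 3749 bases more than the annotated gene spans, so its counts may take in reads from outside the gene and its FPKM is low for its counts.

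MAPK11 and MAPK12 complete the p38 family. MAPK11, for p38β, was at 0 in all mimic libraries, and in control it had 4 counts, all from replicate 3. MAPK12, for p38γ, was counted only in a row merged with its neighbour HDAC10. MAPK12/HDAC10 had 1295, 1304 and 1331 counts in mimic libraries and 1782, 1478 and 1627 in control libraries, with a log2 fold change of -0.24 ± 0.08 (edgeR adjusted p = 0.075).

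MAP2K3 and MAP2K6 encode MKK3 and MKK6, which are among the MAP2Ks that phosphorylate p38. MAP2K3 measured 26.5, 31.3 and 27.2 FPKM in mimic libraries, against 29.8, 25.3 and 24.9 FPKM in control libraries. The groups overlapped: control replicate 1 lay above mimic replicates 1 and 3. The log2 fold change was 0.16 ± 0.09 (edgeR adjusted p = 0.262). In the annotation 4.38% of the 31-base words of MAP2K3 transcripts also occur in the gene AC243725.1, so a small part of MAP2K3 reads could be split between the pair.

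MAP2K6 was close to undetected. Mimic replicate 1 had 6 counts and control replicate 3 also had 6, and the remaining libraries were at 0. Each 0 allows up to 3 counts in a library, for counting error only. Nearly all MAP2K RNA of this pair was MAP2K3: the MAP2K6 share of their summed FPKM was 0.0424% in mimic replicate 1, 0.0456% in control replicate 3 and 0 in the others (exact two-sided permutation test, p = 1). Whether MAP2K6 differed between groups was not detectable at this depth.

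Among the TAK1 complex genes the kinase itself did not pass the test and its 3 adaptors did. MAP3K7, which encodes TAK1, measured 8.33, 8.83 and 7.33 FPKM in mimic libraries, against 7.40, 9.11 and 8.74 FPKM in control libraries. The ranges lay almost on top of each other. The log2 fold change was 0.03 ± 0.10 (edgeR adjusted p = 0.857), and it changed sign with the scaling, to -0.05 with libraries scaled to their totals.

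TAB1 encodes the activating subunit of TAK1, which can also bind p38α directly and promote its autophosphorylation. It measured 6.55, 6.27 and 6.07 FPKM in mimic libraries, against 8.22, 7.83 and 8.0 FPKM in control libraries. All mimic libraries were below all control libraries. The gene fell 1.21-fold (log2 fold change -0.27 ± 0.07, edgeR adjusted p = 0.0302). This call ended whichever of the 6 libraries was left out (adjusted p from 0.0537 to 0.0952), although the log2 fold change stayed between -0.29 and -0.25.

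TAB2 encodes an adaptor whose zinc finger binds lysine-63-linked ubiquitin chains. It measured 7.68, 6.27 and 7.35 FPKM in mimic libraries, against 15.0, 12.96 and 10.1 FPKM in control libraries. The groups did not overlap, but the control libraries differed among themselves, with a coefficient of variation of 19.2%. The gene fell 1.69-fold (log2 fold change -0.76 ± 0.15, edgeR adjusted p = 0.0127), and the log2 fold change ran from -0.90 to -0.63 over the fits without 1 library, with adjusted p up to 0.0439. Of all tested rows 1.48% lay lower by fold change. The TAB2 row is an assembled locus of 9213 bases, 1.53 times the 6010 exonic bases annotated for the gene. Overlapping it are 4 annotated genes on its strand and 2 on the opposite strand. As the strandedness of the counts is not given, some counts may come from genes on either strand.

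TAB3 encodes the third adaptor, a paralog of TAB2 with the same kind of ubiquitin-binding zinc finger. It measured 6.56, 6.70 and 6.05 FPKM in mimic libraries, against 3.21, 3.51 and 3.09 FPKM in control libraries. The lowest mimic library was well above the highest control library. The gene rose 2.07-fold (log2 fold change 1.05 ± 0.07, edgeR adjusted p = 0.000213), and the log2 fold change was 1.01 to 1.11 in the fits without 1 library. Among the 11260 rows TAB3 had the 125th smallest p. It lies on the minus strand at chrX:30827442-30975084. The antisense genes TAB3-AS1 and TAB3-AS2 overlap it. The strandedness of the counts is not given, so reads of TAB3 and these genes cannot be told apart where they overlap.

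**Figure D2:**
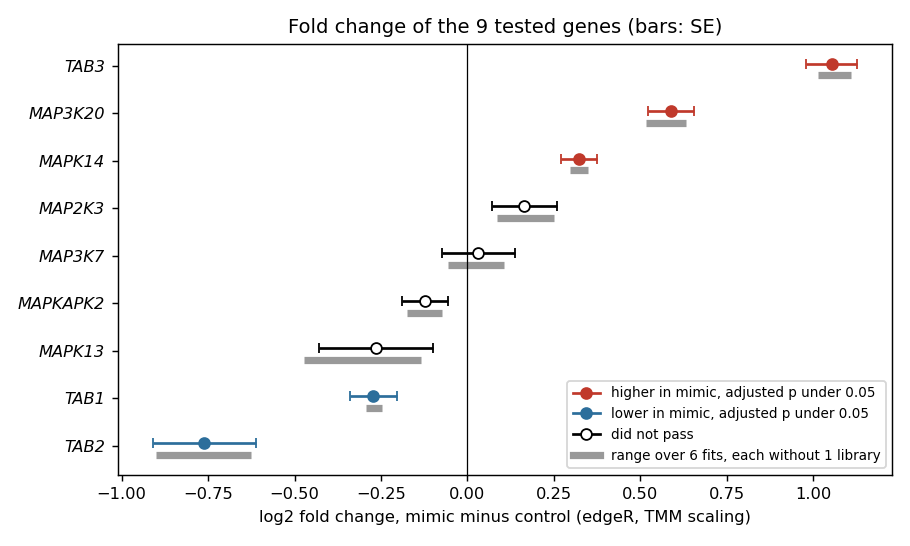
Log2 fold change, mimic minus control, of the 9 genes tested with edgeR, with SE bars, and below each a grey bar for the range over the 6 fits without 1 library. TAB3 stands at 1.05 and TAB2 at -0.76, at opposite ends, and the grey bar of MAP3K7 crosses 0.

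The paralogous adaptors TAB2 and TAB3 moved in opposite directions, so their balance differed between groups. TAB3 made up 46.1%, 51.7% and 45.1% of the summed TAB2 and TAB3 FPKM in mimic libraries, against 17.6%, 21.3% and 23.4% in control libraries. The means were 47.6 ± 3.53% in mimic and 20.8 ± 2.91% in control (SD, n = 3 each; exact two-sided permutation test, p = 0.1, the smallest that 3 against 3 libraries allow). Every mimic library was already above all control libraries for TAB3 and below them for TAB2. The share had to separate the groups, so its test adds nothing to the results of the single genes. Because the TAB2 row carries a length longer than the annotated exons, the share was also taken from counts per annotated exon length. It was then 37.5 ± 3.34% in mimic and 14.7 ± 2.21% in control (SD, n = 3), so TAB2 stayed the more abundant of the pair in every library on that scale. Some counts of the TAB2 row may come from outside its annotated exons, so that scale may set TAB2 too high.

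For the p38 pair, MAPK14 made up 93.3%, 93.7% and 90.4% of the summed MAPK14 and MAPK13 FPKM in mimic libraries, against 89.7%, 88.5% and 89.2% in control libraries. The groups did not overlap (exact two-sided permutation test, p = 0.1). Per annotated exon length the shares were 81.3 ± 3.88% in mimic and 74.3 ± 1.22% in control (SD, n = 3). That scale may set MAPK13 too high, as its row may take in reads from outside the gene. On either scale MAPK14 was the main p38 transcript of the pair.

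**Figure D3:**
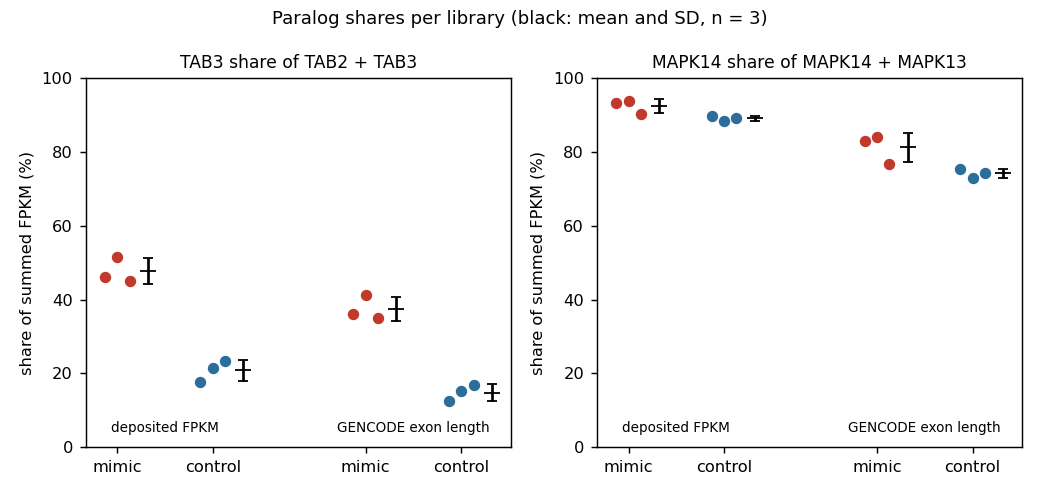
Share of TAB3 in TAB2 plus TAB3 and of MAPK14 in MAPK14 plus MAPK13, in percent of the summed FPKM, for each library, with mimic left of control, on the deposited FPKM and on counts per GENCODE exon length (mean and SD of 3 libraries in black). The TAB3 share is 45.1 to 51.7% in mimic and 17.6 to 23.4% in control on the deposited scale.

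MAP3K20 encodes ZAK, a MAP3K that responds to ribosome stalling and feeds both p38 and JNK. It measured 18.2, 20.8 and 17.8 FPKM in mimic libraries, against 12.9, 13.7 and 13.2 FPKM in control libraries. The groups lay well apart. The gene rose 1.504-fold (log2 fold change 0.59 ± 0.07, edgeR adjusted p = 0.00148), and the call held in all 6 fits without 1 library. The antisense gene MAP3K20-AS1 overlaps it and was counted in a row of its own, with 80 to 111 counts in mimic libraries and 57 to 82 in control libraries, against 8819 to 10172 and 6417 to 6774 counts for MAP3K20. Since the strandedness of the counts is not given in the sources used here, reads of the pair cannot be told apart where they overlap.

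MAPKAPK2 encodes MK2, the kinase through which p38 controls the stability and translation of many cytokine mRNAs. It measured 25.5, 23.5 and 27.1 FPKM in mimic libraries, against 29.8, 28.2 and 29.4 FPKM in control libraries. On deposited FPKM every mimic library was below every control library. After TMM scaling the groups overlapped, and the log2 fold change was -0.12 ± 0.07 (edgeR adjusted p = 0.229). MKNK2, for the kinase MNK2 that both p38 and ERK activate, had 1031, 871 and 948 counts in mimic libraries and 1842, 1943 and 2617 in control libraries (log2 fold change -1.09 ± 0.15, edgeR adjusted p = 0.0034). Its relative MKNK1 was counted only in the merged row MOB3C/MKNK1 (log2 fold change 0.07 ± 0.09, edgeR adjusted p = 0.59).

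By level on the deposited FPKM scale, MAP2K3 and MAPKAPK2 were the most abundant of the 10 transcripts in both groups. In mimic they averaged 28.3 ± 2.58 and 25.4 ± 1.78 FPKM, and in control 26.7 ± 2.70 and 29.1 ± 0.841 FPKM (SD, n = 3). Their ranges overlapped in each group. MAP2K3 lay above 86.9% of the 10429 single genes tested. MAP3K20 and MAPK14 followed in mimic, with overlapping ranges, and in control MAPK14, then MAP3K20 and TAB2, whose ranges overlapped. MAP3K7, TAB2, TAB3 and TAB1 then stood close together in mimic, at 8.16, 7.10, 6.44 and 6.29 FPKM, and each overlapped the next. In control, MAP3K7 and TAB1 overlapped at 8.42 and 8.01 FPKM, while TAB3, at 3.27 FPKM, stood apart below them. The order changed per annotated exon length. All counts of a row were divided by that length, so values of longer assembled loci such as TAB2 and MAPK13 may be too high. TAB2 then averaged 10.9 FPKM in mimic (9.62 to 11.8), above MAP3K7 (7.35 to 8.86) and TAB3 with no overlap, and 19.5 FPKM in control (15.5 to 23.0), next after MAPKAPK2 and MAP2K3 and overlapping MAPK14 below it. MAP3K20 averaged 21.1 FPKM in mimic, no longer overlapping MAPK14. On that scale MAPK13 measured 4.25 ± 1.01 in mimic and 5.40 ± 0.224 in control (SD, n = 3), which placed it below TAB3 in mimic and above TAB3 in control.

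What the 10 genes share in their 3′ UTRs was looked at next, since the rule did not use sequence and a microRNA acts mainly there. The mature miR-5001-5p from RefSeq (GRCh38.p14, chr2:232550530-232550553, minus strand) is shown to give the site searched for, with its seed, bases 2 to 8, in capitals. The site is the reverse complement of that seed, CCAGCCC. The other heptamers, AGTACAA and GTACAAA, overlap by 6 bases and were picked on fold changes of these same libraries, so their presence in a changed gene is no independent support. Each search took the longest 3′ UTR among GENCODE 29 basic transcripts of the gene and read the transcript strand only. The stretches below, on GRCh38, have the heptamer in capitals.
miR-5001-5p: aGGGCUGGacucagcggcggagcu
TAB1, chr22:39431220-39431248: gaagggtcgggCCAGCCCagcccagggcc
MAPKAPK2, chr1:206733568-206733596: agactggacccCCAGCCCccagggccccc
TAB3, chrX:30830759-30830787: ctttgtttaaaAGTACAAtcagaggtggt
TAB3, chrX:30827529-30827557: gagatgaaattGTACAAAggcattttaaa
MAP3K20, chr2:173222222-173222250: aaagaattgatAGTACAAaatccaacaac
MAP3K20, chr2:173221589-173221617: tatctcagtctGTACAAAaacagtaagga
TAB2, chr6:149410305-149410333: atgcattgtctGTACAAAtgtgcagcgaa
MAP3K7, chr6:90515224-90515252: attttgataccAGTACAAgatgtctttta

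CCAGCCC was found in TAB1 and MAPKAPK2 and in none of the other eight genes. TAB1 held 2 overlapping copies, starting 1009 and 1014 bases past the stop codon, in a 3′ UTR of 1660 bases. MAPKAPK2 held 1 copy, in 1565 bases. TAB1 was called lower and MAPKAPK2 was not called, at log2 fold changes of -0.27 and -0.12. The heptamer is common: 23.1% of the 9060 tested genes with a 3′ UTR held it, and 24.3% of those within 20% of the TAB1 length did.

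AGTACAA or GTACAAA was found in TAB3, MAP3K20, TAB2 and MAP3K7. MAP3K20 held GTACAAA at 3 places, 70, 704 and 2236 bases past the stop codon, the second of them overlapping its 1 AGTACAA, in a 3′ UTR of 5616 bases. TAB3 held 1 of each in 3985 bases. TAB2 held 1 GTACAAA in 1894 bases and MAP3K7 1 AGTACAA in 3076 bases. So of the 3 genes that rose, TAB3 and MAP3K20 had a match and MAPK14, with 2789 bases, had none, while TAB2 had a match and fell. Across the tested genes 17.2% held one or the other, and among those within 20% of its length the share was 46.7% for MAP3K20, 35.8% for TAB3, 15.9% for TAB2 and 27.5% for MAP3K7. No match says only that these letters are not in the annotated stretch, and which 3′ UTR these cells use was not measured.

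**Figure D4:**
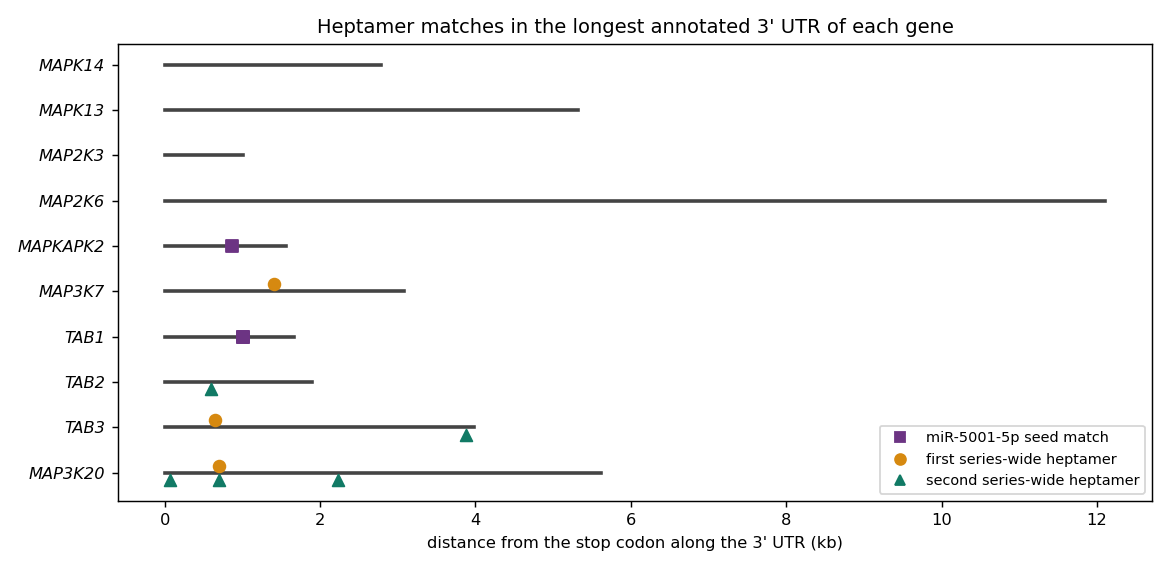
The longest annotated 3′ UTR of each of the 10 genes drawn to scale in kb from the stop codon, with squares for the miR-5001-5p seed match CCAGCCC, circles for AGTACAA (first heptamer) and triangles for GTACAAA (second heptamer). MAP3K20 carries 4 marks, squares appear only on TAB1 and MAPKAPK2 (the 2 overlapping copies in TAB1 print as 1), and MAPK14, MAPK13, MAP2K3 and MAP2K6 carry none.

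Around these genes, 9 lists of 103 pathway genes were read from the same test. Of 84 that were measured alone and tested, 24 were higher and 4 lower in mimic, 33.3% against 22.3% of all rows, with a median log2 fold change of 0.11. In the fit of rows with an FPKM of at least 5 in at least 3 libraries, 2109 of 6669 passed. The lists were not matched for expression level and were chosen with earlier results of these data known. The comparison is therefore not neutral.

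Of the 14 other MAP3Ks upstream of p38 and JNK, 4 were higher and 2 lower, with a median log2 fold change of -0.04. MAP3K2, a MAP3K known for the ERK5 and JNK branches, rose 1.89-fold and measured 9.35, 9.57 and 9.33 FPKM in mimic libraries, against 5.06, 5.61 and 5.08 FPKM in control libraries (log2 fold change 0.92 ± 0.06, edgeR adjusted p = 0.000194). MAP3K1, which encodes MEKK1, rose 1.95-fold, MAP3K13, which encodes the leucine zipper kinase LZK, 1.77-fold, and TAOK3 1.28-fold. MAP3K3 fell 1.23-fold and MAP3K9 1.19-fold, and MAP3K9 kept its call in 1 of the 6 fits that left out a library, where the highest adjusted p was 0.0891.

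Upstream of TAK1, 2 of 20 receptor, adaptor and ubiquitin-enzyme genes were higher and 0 lower (median log2 fold change 0.01). BIRC2, for the ubiquitin ligase cIAP1 that works at TNF receptors, rose 2.07-fold and measured 31.8, 21.2 and 25.6 FPKM in mimic libraries, against 12.96, 12.7 and 14.3 FPKM in control libraries (log2 fold change 1.05 ± 0.14, edgeR adjusted p = 0.00307). CYLD, whose product cuts lysine-63-linked ubiquitin chains, rose 1.87-fold (log2 fold change 0.90 ± 0.07, edgeR adjusted p = 0.000408). The other 18 lay between log2 fold changes of -1.23 and 0.69 without passing. At an unadjusted edgeR p under 0.05 the lower count was 2, and DESeq2 called 1 gene of the list lower. Of the 3 genes tested for the IKK kinases and NLK, which TAK1 also feeds, 0 passed edgeR and 0 DESeq2, and 1 had an unadjusted p under 0.05, lower in mimic.

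In the JNK branch 1 of 6 genes passed, MAPK9, which encodes JNK2 (log2 fold change 0.22 ± 0.06, edgeR adjusted p = 0.0361), and that call ended whichever library was left out, at a highest adjusted p of 0.0989. GADD45A and GADD45B encode small stress proteins that bind and activate the MAP3K MTK1. Both rose, GADD45A 1.41-fold and GADD45B 1.38-fold, and both kept the call in all 6 fits.

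Of all rows tested, 13.6% were higher and 8.63% lower in mimic, so an absence of lower genes in a short list is not read as a result about that list. Of 11 phosphatase genes that act on p38 or its inputs, 4 were higher and 0 lower, with a median log2 fold change of 0.27. At an unadjusted edgeR p under 0.05, and in DESeq2, the lower count was also 0. DUSP1 encodes the phosphatase MKP-1, which removes the activating phosphates of p38. It measured 129, 138 and 147 FPKM in mimic libraries, against 79.3, 82.5 and 87.4 FPKM in control libraries. With TMM scaling it rose 1.75-fold (log2 fold change 0.81 ± 0.07, edgeR adjusted p = 0.000421). With libraries scaled to their totals, as the FPKM are, the DUSP1 log2 fold change was 0.73. DUSP16 rose 1.32-fold. PPP2CB and DUSP4 had adjusted p of 0.0239 and 0.0495, and kept the call in 2 and 1 of the 6 fits without 1 library.

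Of 15 substrates of p38 and MK2, 4 were higher and 1, MKNK2, was lower, with a median of 0.08. The higher ones were the transcription factor genes MEF2D (1.30-fold), ATF1 (1.40-fold) and CREB1 (1.79-fold) and the mRNA-decay factor gene ZFP36L1 (1.21-fold). CREB1 kept the call in 2 of the 6 fits that left out a library, and its highest adjusted p there was 0.12. Of 13 transcripts known to be stabilised through p38 and MK2, 7 were higher and 1 lower, with a median of 0.30. IER3 rose 1.98-fold and PLAUR, which encodes the urokinase receptor, 1.66-fold, while CXCL8 rose 3.59-fold and IL6 fell 1.44-fold. IL1B rose 1.38-fold and MMP1 1.21-fold. The remaining higher ones kept the call in 3 and 4 of the 6 fits without 1 library, at highest edgeR adjusted p of 0.0537 and 0.0645. RNA levels say nothing of the phosphorylation or activity of these kinases, which was not measured.

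**Figure D5:**
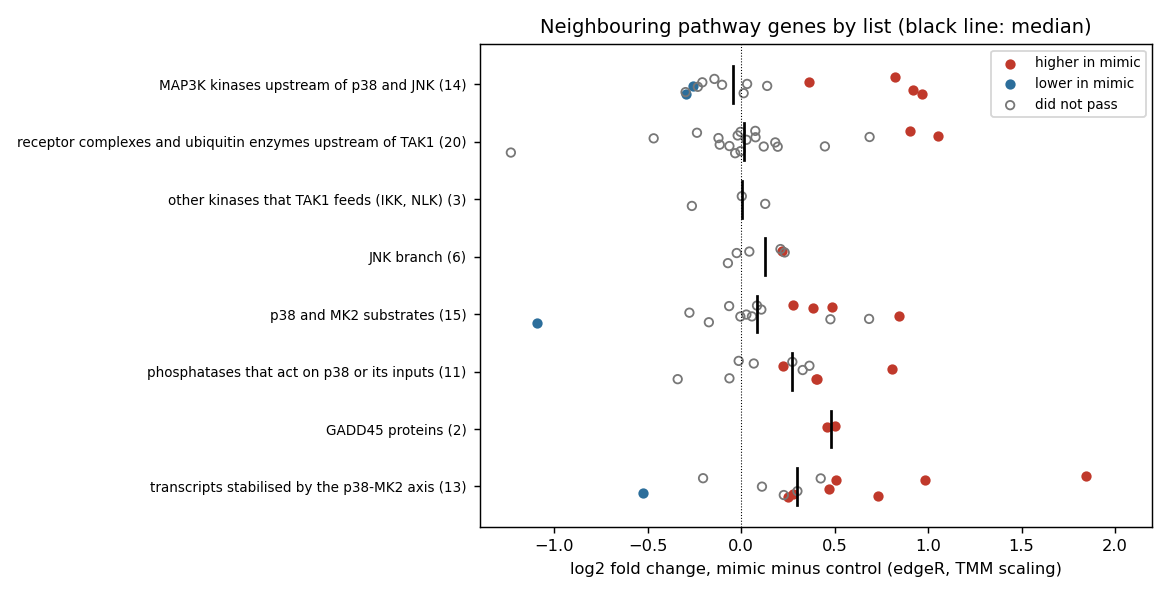
Log2 fold change, mimic minus control, of the tested genes of each pathway list, one point per gene, filled where the edgeR adjusted p was under 0.05 (red higher, blue lower in mimic), with the list median as a black line and the number tested in brackets. The phosphatase list has 4 filled red points and no blue one, and MKNK2 is the blue point at -1.09.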

How the data were processed

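The 6 libraries of polyadenylated RNA came from MDA-MB-231 cells, 3 labelled mimic and 3 labelled control. The submitters' processing notes name cutadapt 1.9, FastQC and GRCh38. Which aligner and counter were used, and whether counting used strand, is not given in the sources used here. The deposited table holds raw counts and the authors' FPKM in 66381 rows. The deposited FPKM equal counts scaled by a fixed length per row and by library totals. Neither library sizes nor tests used the 38792 rows that name no gene, which held 2.46 to 2.70% of counts. The 11260 rows that reached an FPKM of 1 in 3 or more libraries were tested with edgeR 4.0.16 (R 4.3.3), TMM scaling and Benjamini-Hochberg adjustment, two-sided. SE was taken as the absolute log2 fold change over the square root of F. No library was taken for a copy of another, since counts of any 2 differed by more than sampling noise (lowest chi-square over its degrees of freedom 27). Tested on simulated data for this comparison (11260 rows, 200 changed), the test recovered 34% of the rows set to change 1.5-fold, 80% of those set to 2-fold, 84% of those set to 3-fold and 0% of those set to 1.25-fold. It made 5 false calls. The simulation changed 200 rows, whereas 2506 passed in the data, so recovery at these folds need not be the same in the data. There MAPK14 passed at 1.25-fold and TAB1 at 1.21-fold. Shares were compared with exact permutation tests (scipy 1.17.1). Alternatives were DESeq2 1.42.0, limma 3.58.1 on log2(FPKM + 1) and log2(FPKM + 0.1), other scalings and filters, a replicate block, each library left out, and, chosen after seeing the data, annotated exon lengths for shares. Sequences came from GENCODE 29 and RefSeq. The members and lists were chosen with earlier results of these data known. Named genes are all 10 members, MAPK11, MAPK12, MKNK1, MKNK2 and TNF, and up to 6 called genes of each list with the smallest p; TNF had 15, 4 and 6 counts in mimic and 4, 3 and 0 in control, under the filter.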

Additional observations from a re-analysis of the deposited data

How the results depend on the processing

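Over the alternatives run, 120 of 134 values of the 9 tested genes kept their direction and their side of the threshold. The exceptions concern TAB1, MAP3K7 and MAPK13. The TAB1 log2 fold change was -0.26 with no filter on FPKM (adjusted p = 0.135, with 27589 rows tested), -0.27 with the replicate number as a block (adjusted p = 0.0666), and -0.29 to -0.25 over the fits without 1 library, none of which passed. The MAP3K7 value was -0.0464 with libraries scaled to totals, -0.0388 and -0.0429 in limma with pseudocounts of 1 and 0.1, and -0.0551 to 0.104 without 1 library. The MAPK13 value was -0.47 to -0.13 without 1 library. Changed genes numbered 1576 to 2222 without 1 library, and 61.2% of the changed genes were higher with TMM, 38.9% with scaling to totals and 39.8 and 39.9% in limma. The difference in the MAP2K6 share was -0.0152 to 0.0141 percentage points without 1 library; it rests on 6 counts in 1 library of each group. The cause of these differences was not tested. The replicate block gave 1922 changed genes. Same-numbered libraries of the 2 groups deviated together at correlations of -0.01, 0.05 and -0.06, and of the mimic libraries only replicate 2 correlated best with its own number, so the numbers were not taken as pairs, and the block changed no other call among the 9 genes. MAP2K6 gave a value only with no filter, and MAPK13 none at FPKM of at least 5. At this depth MAP2K6 and MAPK11 had too few counts to compare between groups, and limits from counts of 0 cover counting error only.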
